A study of Mus musculus with 3 samples.

Results

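Named pseudogenes were compared with the genes they are named after in RNA immunoprecipitation sequencing (RIP-seq) of YTHDF2 in mouse embryonic stem cells (ESCs). The members were the genes whose symbol ends in -ps with optional digits. They were chosen by their summed counts, with at least 30 counts over the 3 libraries, and names starting with Zscan4 were set aside. Of 1679 such names, 1032 had no count in any library, 1334 stayed under the limit and 345 passed, out of 49997 genes in all. For 260 of the 345 the name before -ps was itself a gene of the table, called the parent here, and these members shared 167 parents. The other 85 had no parent by name.

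The cells were E14 mouse ESCs, which per the study carry a Dox-inducible Dux transgene and a tdTomato reporter driven by the Mervl promoter, and all 3 libraries came from cells given Dox for 24 h. There was 1 Input library and there were 2 YTHDF2 IP libraries, and no untreated sample or control antibody was analysed here. The libraries held 36986994 counts in Input and 35259827 and 35888743 counts in the IP replicates. The spread therefore came from the 2 IP libraries alone, and since nothing says that they were separate cultures, p-values measure only the spread between them, which may be technical. All 8 ESC markers were present, summing to 8168, 8871 and 8806 CPM (counts scaled to a fixed library total) in Input and the IP replicates. The 6 markers of 2C-like cells summed to 1706, 2822 and 2807 CPM, the 5 fibroblast markers to 29.1, 15.9 and 17.0 CPM with Col3a1 and Dcn at 0, and the 4 primitive endoderm markers to 8.81, 14.9 and 9.72 CPM. The part of these other cell types in the results was not tested.

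A processed pseudogene is a copy of a spliced mRNA that was reverse-transcribed and inserted elsewhere in the genome, so it usually lacks the introns and the promoter of its parent. Genes with abundant mRNAs in the germ line, those of ribosomal proteins above all, have left many such copies. YTHDF2 is a cytoplasmic reader of N6-methyladenosine (m6A) that brings mRNAs to decay, and a pseudogene that is transcribed can carry or lack the sequence context of its parent.

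How near a copy stands to its parent decides whether reads can be told apart, so 4 pairs are shown first. Each pair gives 120 bases of the coding sequence of the parent with the same bases of the pseudogene, read 5′ to 3′ from GRCm38.p6 (mm10) with RefSeq gene models. Capitals mark the positions at which the pair differs. The stretch was the window without gaps that held the most differences. Rpl19-ps3, at chr14:49112679-49112798 (- strand), differed from Rpl19 at 14 positions from the start codon on. The Rpl19 bases lie within chr11:98026986-98028353 (+ strand), joined across an intron.
Rpl19-ps3: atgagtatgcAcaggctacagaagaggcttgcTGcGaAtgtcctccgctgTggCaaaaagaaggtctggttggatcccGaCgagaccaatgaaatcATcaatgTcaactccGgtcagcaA
Rpl19: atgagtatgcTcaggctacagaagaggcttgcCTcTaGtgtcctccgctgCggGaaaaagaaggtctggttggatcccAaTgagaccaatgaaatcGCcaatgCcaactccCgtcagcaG
The pseudogene Rps15a-ps4, at chr4:132220047-132220166 (- strand), differed from Rps15a at 6 positions. The Rps15a bases lie within chr7:118109102-118109960 (- strand), again across an intron.
Rps15a-ps4: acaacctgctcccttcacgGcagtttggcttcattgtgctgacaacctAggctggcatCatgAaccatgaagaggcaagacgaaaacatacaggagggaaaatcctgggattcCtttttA
Rps15a: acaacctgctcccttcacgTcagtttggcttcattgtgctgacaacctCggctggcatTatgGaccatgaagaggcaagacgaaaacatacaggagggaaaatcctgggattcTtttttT
In Tdgf1-ps1, at chr16:3730903-3731022 (+ strand), 4 positions differed from Tdgf1. The Tdgf1 bases lie within chr9:110940707-110942335 (- strand).
Tdgf1-ps1: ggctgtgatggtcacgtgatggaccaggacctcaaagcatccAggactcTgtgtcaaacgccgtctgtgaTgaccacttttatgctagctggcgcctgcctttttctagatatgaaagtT
Tdgf1: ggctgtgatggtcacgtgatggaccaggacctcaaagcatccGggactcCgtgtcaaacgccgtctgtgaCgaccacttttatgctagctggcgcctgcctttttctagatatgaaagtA
In Rpl3-ps1, at chrX:13202572-13202691 (+ strand), 1 position differed from Rpl3. The Rpl3 bases lie within chr15:80082466-80083326 (- strand).
Rpl3-ps1: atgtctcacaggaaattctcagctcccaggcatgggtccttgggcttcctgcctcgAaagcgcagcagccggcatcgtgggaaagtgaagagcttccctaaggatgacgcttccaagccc
Rpl3: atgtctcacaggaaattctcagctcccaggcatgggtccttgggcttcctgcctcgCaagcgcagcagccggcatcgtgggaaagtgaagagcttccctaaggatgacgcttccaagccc
A read from such a stretch of Rpl19-ps3 carries many marks of its origin, and one from Rpl3-ps1 carries at most 1.

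Over the best-scoring aligned stretch, the median identity between a member and the RefSeq transcript of its parent was 98.7% (n = 256, from 63.9% to 100%). In 12 members that stretch had no mismatch at all. All aligned stretches together covered a median of 100% of a member, and 2.24% at the least. Of the 345 members, 309 had a single exon and the median exonic length was 1002 bases. RefSeq listed 296 as pseudogenes, 41 as transcribed pseudogenes, 5 as protein-coding, 2 as long noncoding RNAs and 1 as another RNA. By position, 228 lay outside other genes, 90 lay inside a host gene without touching its exons, and 27 overlapped an exon of another gene. A median of 22.4% of the 150-base windows of a member also occurred elsewhere in the genome or in the transcript of the parent. The counting command did not ask for reads that map to several places, yet copies without any unique window had counts, so how reads of near-identical copies were assigned is not known and their counts are uncertain. Strand was not used either, so a member and an antisense transcript over it cannot be told apart.

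Members held 0.951% of all counts in Input (95% Wilson interval 0.948 to 0.954), 0.707% (0.705 to 0.710) and 0.724% (0.721 to 0.726) in the IP replicates. Reads are not independent molecules, so only counting error is covered. The 8 members with the most counts made up 46.9% of the member counts in Input and 40.4% and 41.3% in the IP replicates. The share was lower in both IP libraries than in Input, with intervals that do not overlap.

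A smaller share of members was enriched in IP, and a larger share depleted, than of all genes tested. At an adjusted p under 0.05 and a fold over 2 by the edgeR quasi-likelihood test, 26 of 345 members were enriched (7.54%), where 15.0% of the 19601 genes tested were. Depletion was called for 67 members (19.4%), where 13.0% of all genes tested were. With dispersion fixed at 0.1, 14 members were enriched and 44 depleted, a setting for which the share over all genes is not given here. All 345 members passed the filter on low counts. The median log2 fold change (IP over Input) was -0.32 over the members, 0.01 over all genes tested and 0.01 over 15227 protein-coding genes. It was -0.17 over 1619 other annotated pseudogenes, of which 196 (12.1%) were enriched and 279 (17.2%) depleted. That set had no limit on summed counts, and the 1379 of it with at least 30 had a median of -0.15, with 189 (13.7%) enriched and 258 (18.7%) depleted. It was -0.54 over 166 parents, of which 7 (4.22%) were enriched and 34 (20.5%) depleted. The members thus lay below the protein-coding genes in the median, and these are descriptions with no test.

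**Figure D1:**
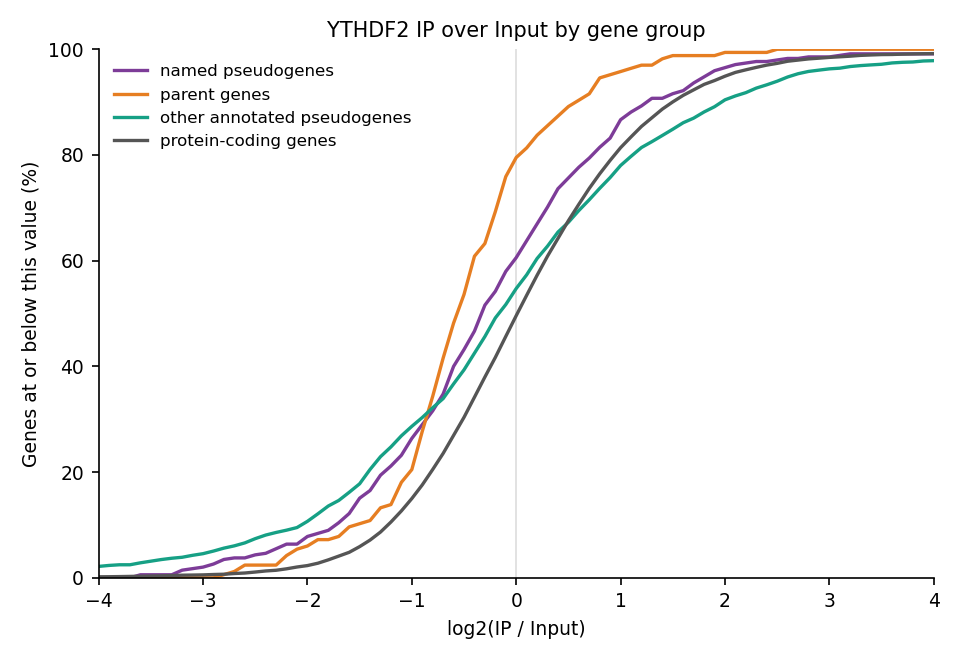
Share of genes (y axis, percent) at or below each log2 ratio of YTHDF2 IP over Input (x axis) for 345 named pseudogenes, their 166 parents, 1619 other annotated pseudogenes and 15227 protein-coding genes. The curves of the parents and the named pseudogenes cross the middle at -0.54 and -0.32, to the left of the protein-coding genes at 0.01.

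The calls were also counted by how many Input counts a member had. Of all genes tested, not split in this way, 15.0% were enriched and 13.0% depleted. Among the 103 members with under 30 counts in Input, 12 were enriched and 1 was depleted, with a median log2 fold change of 0.48. Among the 242 with at least 30 counts in Input, 14 were enriched and 66 depleted, with a median of -0.55. The Input count is also the denominator of the ratio, so this split by itself favours high ratios under it and low ratios above it, and no comparison is read from either side. At the limit itself, the 12 members with sums of 30 to 32 had median counts of 13.5 (Input), 8 and 10 (IP replicates). The 17 names with sums of 27 to 29, just outside, had 13, 6 and 8.

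Pseudogenes and parents were then set side by side in the 259 pairs in which both were tested. The log2 fold change of the pseudogene minus that of the parent had a median of 0.14, with quartiles at -0.37 and 0.83. This median was 0.21 with a GC trend removed and 0.0886 with at least 100 counts. In 112 pairs the values lay within 0.5 of each other on the log2 scale, and in 78 they differed by more than 2-fold. The 95% interval of the difference lay above 0 in 60 pairs, below 0 in 46, and included 0 in 153. With dispersion fixed at 0.1, 20 lay above and 10 below. Across pairs the log2 fold changes of pseudogene and parent gave correlations of 0.36 (Pearson) and 0.44 (Spearman; n = 259 pairs, which share libraries and, in families, parents). In the 66 pairs with under 30 Input counts for the pseudogene, 15 intervals lay above 0 and 1 below, with a median difference of 0.87. In the other 193, 45 lay above and 45 below, with a median of 0.00. This split too is on a count that enters the difference, so it favours higher differences in the first group and lower ones in the second.

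The calls of both genes of a pair were then counted, beside 13.0% depleted and 15.0% enriched among all genes tested. Both were depleted in 22 pairs and both enriched in 4. The pseudogene alone was depleted in 29 and the parent alone in 21. The pseudogene alone was enriched in 13 and the parent alone in 4. In 2 pairs the pseudogene was enriched and the parent depleted, in 0 pairs the reverse, and in 164 neither was called.

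**Figure D2:**
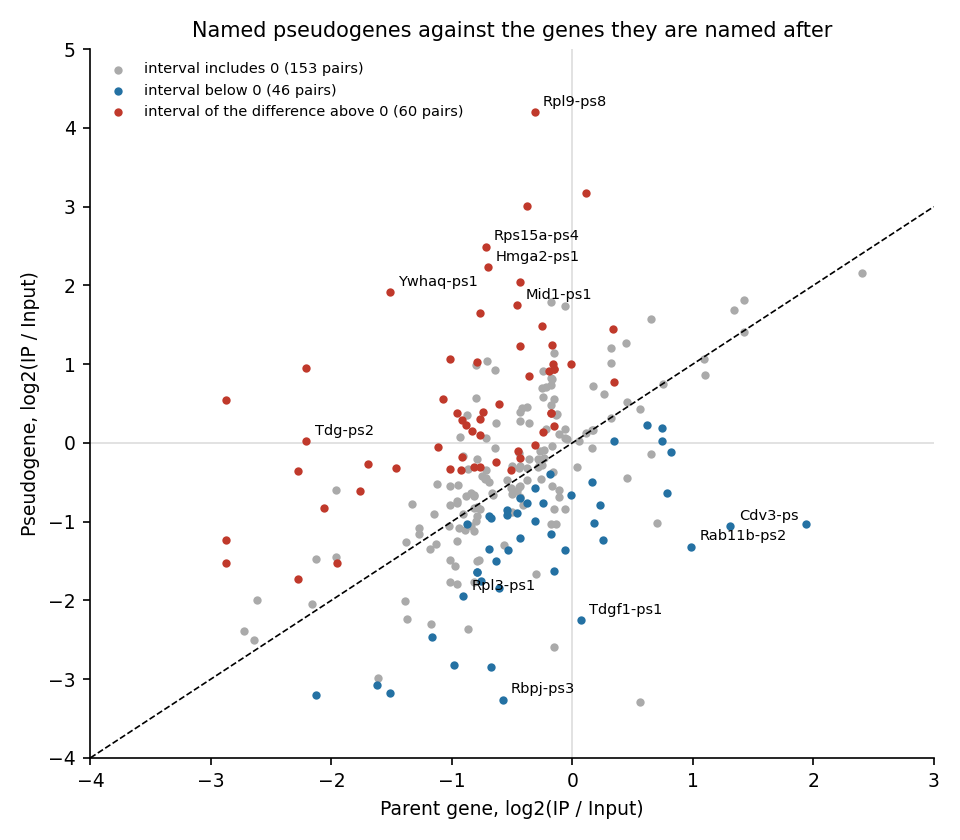
Log2 ratio of YTHDF2 IP over Input for each pseudogene (y axis) against its parent (x axis), coloured by whether the 95% interval of the difference lies above 0 (60 pairs), below 0 (46) or includes 0 (153). The dashed line marks equal values. Rpl19-ps3 and Rpl21-ps1, with 0 counts in Input, lie beyond the y axis and are not drawn.

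The pairs with the highest differences follow. They were ranked among pairs with a mean of at least 30 counts per library and the same sign in both IP libraries. Tdg-ps, under that limit, and Mid1-ps1 were added. Of these pseudogenes, Rpl19-ps3, Rps15a-ps4, Rpl31-ps15, Ywhaq-ps1 and Tdg-ps had under 30 counts in Input, so they needed IP counts to reach the limit. Rpl19-ps3, at 0 in Input, had to be higher in IP to be a member. Naming took a mean of at least 30 counts per library, so Rps15a-ps4, Rpl31-ps15 and Ywhaq-ps1 also had to be higher in IP. The values and intervals of all 5 are descriptions with no test. Rpl19-ps3, a copy of the gene of a large-subunit ribosomal protein, was at 0 counts in Input, with 62 and 74 in the IP replicates. Rpl19 had 41293, 37722 and 38761. Both IP libraries were thus above Input for the pseudogene. The mean of their CPM was at least 23.6-fold that of a floor of 3 counts in Input, while Rpl19 had a log2 fold change of -0.15 ± 0.05 (SE).

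Rps15a-ps4, from the gene of a small-subunit protein, had 12, 79 and 61 counts, and Rps15a 23806, 14653 and 15081. Its log2 fold change was 2.49 ± 0.58 (SE) and that of Rps15a -0.72 ± 0.05, a difference of 3.21 (95% interval 2.03 to 4.39). For Rpl31-ps15, also ribosomal, the counts were 15, 64 and 64 against 35016, 26348 and 26797 for Rpl31. The difference was 2.48 (1.33 to 3.64). Rpl31-ps15 lies in the noncoding gene Gm36620, which had 0, 39 and 34 counts, so host and pseudogene were both low in Input. The part of the host transcript in the counts of Rpl31-ps15 was not tested.

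Hmga2-ps1 is named for Hmga2, an architectural chromatin protein of early development. Its counts were 50 in Input and 278 and 206 in IP, against 844, 510 and 557 for Hmga2. The log2 fold changes were 2.23 ± 0.32 (SE) and -0.70 ± 0.14, a difference of 2.94 (2.23 to 3.65). The match of Hmga2-ps1 to the Hmga2 transcript (95.1% over 611 bases) is on the opposite strand, so as annotated its transcript would be antisense to the copied sequence.

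Ywhaq-ps1 had 11, 41 and 45 counts, and Ywhaq, the gene of the 14-3-3 theta adaptor protein, had 16308, 5869 and 5862. The log2 fold change was 1.92 ± 0.69 (SE) for the pseudogene and -1.52 ± 0.05 for the parent, a difference of 3.43 (2.02 to 4.84). By sequence, however, Ywhaq-ps1 was 67.4% identical to Ywhaq and 88.7% to Sfn, the gene of 14-3-3 sigma. Sfn had 1475, 3928 and 4179 counts and a log2 fold change of 1.42 ± 0.08. Against Sfn the difference was 0.50 (-0.92 to 1.91), an interval that includes 0. The name and the sequence thus gave different pairs, and Ywhaq-ps1, counted above among the enriched members, lost that call with DESeq2, with dispersion fixed at 0.1 and with a GC trend removed.

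Tdg-ps2 is a copy of Tdg, which encodes the thymine DNA glycosylase of base excision repair and DNA demethylation. Its 3324, 3325 and 3623 counts were even across libraries, with a log2 fold change of 0.02 ± 0.07 (SE). Tdg fell from 749 counts in Input to 160 and 173, a log2 fold change of -2.21 ± 0.18 (adjusted p = 1.0e-13). The copy was thus level and the parent depleted, a difference of 2.23 (1.84 to 2.62) at 99.3% identity, and 56.3% of the windows of Tdg-ps2 were non-unique. Tdg-ps, a member with a mean of 25 counts per library that RefSeq lists as protein-coding, had 15, 20 and 40 counts and a difference of 3.16 (1.56 to 4.77). Mid1-ps1, named here after its values were seen, had 1252, 4614 and 4029 counts against 1744, 1191 and 1417 for Mid1, a microtubule-associated ubiquitin ligase. Its log2 fold change was 1.75, with -0.46 for Mid1, a difference of 2.21 (1.93 to 2.49) at 99.8% identity, with 86.1% of its windows non-unique.

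**Figure D3:**
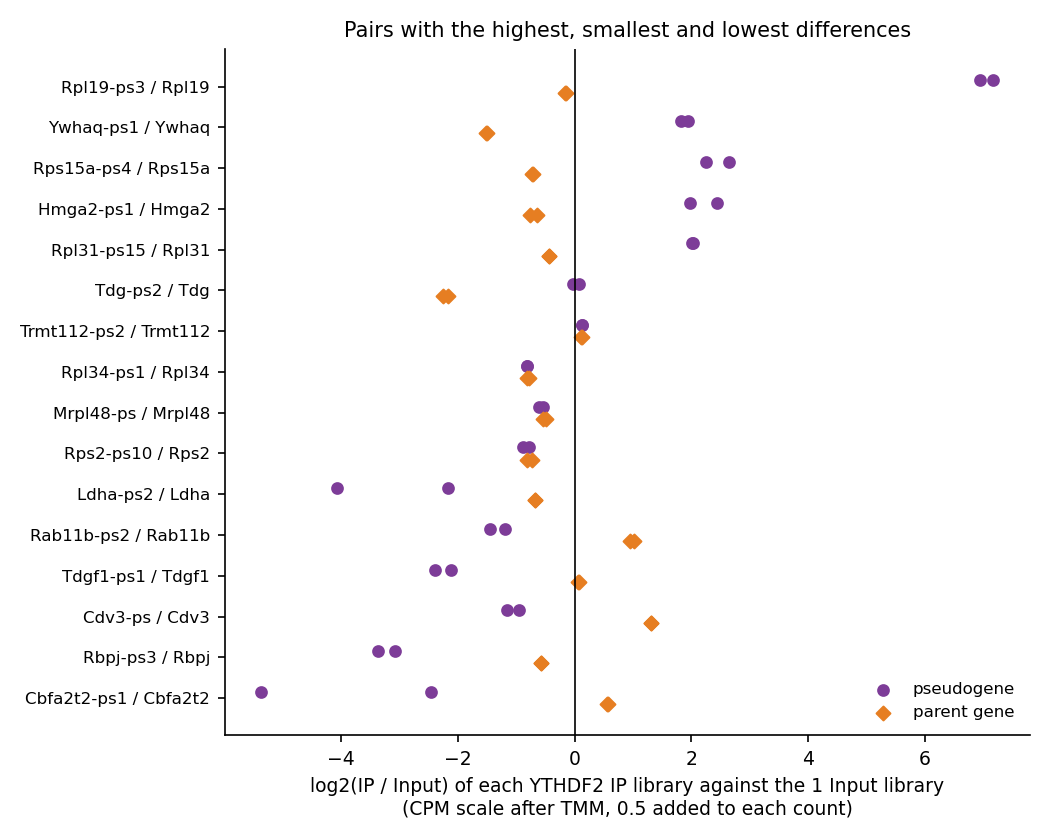
Log2 ratio of each of the 2 YTHDF2 IP libraries to the Input library (x axis, 0.5 added to each count) for pseudogene (circles) and parent (diamonds) in the 16 pairs with the highest, smallest and lowest differences. Pairs were ranked among those with a mean of at least 30 counts per library for the pseudogene and the same sign in both IP libraries. The 2 circles of a pair lie near each other except in Ldha-ps2 and Cbfa2t2-ps1, and the circles and diamonds overlap in the 4 pairs with the smallest differences.

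Other pseudogenes were depleted where the parent was not. Tdgf1-ps1 is a copy of Tdgf1, the gene of the Nodal co-receptor Cripto and an ESC marker. Its counts were 3977 in Input and 776 and 944 in IP, against 39669, 42222 and 43399 for Tdgf1. Its log2 fold change was -2.25 ± 0.09 (SE, adjusted p = 4.8e-21) and that of Tdgf1 0.07 ± 0.05, a difference of -2.32 (-2.53 to -2.11). Only 5.88% of the 150-base windows of Tdgf1-ps1 were non-unique.

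Rab11b-ps2, named for a small GTPase of recycling endosomes, had 296, 132 and 112 counts, and Rab11b 2696, 5325 and 5654. The pseudogene was depleted (-1.32 ± 0.25 SE, adjusted p = 2.6e-05), and Rab11b stood at 0.99 ± 0.07, just under the 2-fold limit. The difference was -2.30 (-2.84 to -1.77), and the call of the pseudogene was lost with dispersion fixed at 0.1. Rbpj-ps3, a copy of the gene of the DNA-binding factor of Notch signalling, had 85, 8 and 10 counts against 9000, 6167 and 6219 for Rbpj. Its log2 fold change was -3.26 ± 0.59 and the difference -2.68 (-3.88 to -1.49).

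Cdv3-ps had 64, 29 and 34 counts, while Cdv3 was among the enriched parents with 14969, 37951 and 38481. The log2 fold change of Cdv3-ps, -1.06 ± 0.50 (SE, adjusted p = 0.069), did not pass the test, though with a GC trend removed it was -1.35 and called, and the difference was -2.37 (-3.39 to -1.35). Ldha-ps2, from the gene of lactate dehydrogenase A, had 138, 31 and 8 counts against 8941, 5706 and 5814. The IP libraries of Ldha-ps2 disagreed, and the difference was -2.18 (-3.20 to -1.16) with both, -1.50 without IP replicate 2 and -3.47 without IP replicate 1. Cbfa2t2-ps1, named for a transcriptional co-repressor, had 262, 6 and 49 counts. Its value of -3.29 ± 1.16 was not called (adjusted p = 0.14), and the difference to Cbfa2t2 of -3.85 had an interval from -8.42 to 0.72 that includes 0. Leaving out IP replicate 2 gave a difference of -6.02, and leaving out IP replicate 1 gave -3.01. With DESeq2, total-count scaling, dispersion fixed at 0.1 or halved counts the interval of the difference lay below 0, and the fold change was called with fixed dispersion and with halved counts.

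The 4 smallest differences among pairs with a mean of at least 30 counts per library and the same sign in both IP libraries had intervals that reached no farther than 0.57 from 0. Trmt112-ps2, a copy of the gene of an activating partner of methyltransferases, had 577, 640 and 654 counts and its parent 1709, 1872 and 1931, a difference of 0.01 (-0.33 to 0.36). Rpl34-ps1 differed from Rpl34 by -0.02 (-0.31 to 0.26), Mrpl48-ps from Mrpl48, a mitochondrial ribosomal protein gene, by -0.06 (-0.57 to 0.44), and Rps2-ps10 from Rps2 by -0.07 (-0.36 to 0.22). Rps2-ps10 itself was not called, at -0.84, but was at -1.18 and called with a GC trend removed. In Trmt112-ps2 and Rps2-ps10, 88.6% and 88.8% of the windows were non-unique.

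Most members were counted far less than their parents. Per kilobase of exon, the Input count of a pseudogene was a median of 1.89% of that of the parent, and it was under 1% in 110 of 259 pairs. In 14 pairs the pseudogene had more counts per kilobase than the parent. Rpl34-ps1, which RefSeq lists as protein-coding, had 42880 Input counts per kilobase and Rpl34 1411. Rpl3-ps1 had 31190 against 20830 for Rpl3, and Tdg-ps2 1148 against 211 for Tdg. How the aligner shared reads between these copies was not tested.

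Rpl3-ps1, a copy of the gene of a core large-subunit protein, was among the members with the most counts. Its counts were 41170 in Input and 10625 and 11354 in IP, a log2 fold change of -1.95 ± 0.05 (SE, adjusted p = 3.5e-28). Rpl3 had 32105, 17161 and 18087 and a log2 fold change of -0.91 ± 0.05, so the difference was -1.04 (-1.18 to -0.90), with an interval that includes 0 when dispersion was fixed at 0.1. The alignment held 2 mismatches in 1295 bases, and 90.5% of the windows were non-unique.

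Rps7-ps3 had 23924, 11919 and 12275 counts, and its log2 fold change of -1.02 ± 0.05 (SE) lay below that of Rps7 by 0.15 (interval of the difference -0.29 to -0.01). That interval included 0 with DESeq2 and with dispersion fixed at 0.1. Its depletion lies at the 2-fold limit and was lost under scaling to total counts, without the filter and with dispersion fixed at 0.1. Rpl14-ps1 (11119, 5901 and 6435 counts), Rps10-ps2 (10207, 5891 and 6471) and Rps12-ps3 (8722, 4971 and 5565) had log2 fold changes of -0.89, -0.76 and -0.77. Each lay below its parent, by 0.43, 0.52 and 0.39 on the log2 scale, with intervals below 0 that included 0 with dispersion fixed at 0.1. With a GC trend removed, Rpl14-ps1 and Rps10-ps2 were called as depleted, both at -1.08. Rps12-ps3 was identical to the Rps12 transcript over all 495 bases, so its difference from Rps12 compares 2 sets of reads that the sequence of the exons cannot separate.

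The other 2 of the most counted members have no parent by name. Eif4a-ps4 was 99.2% identical to Eif4a1, the gene of the helicase of translation initiation, and had 13760, 3395 and 3561 counts. Its log2 fold change was -2.02 ± 0.06 (SE, adjusted p = 1.1e-26), with -0.98 ± 0.05 for Eif4a1, a difference of -1.05 (-1.20 to -0.89). Ftl2-ps, nearly identical to the ferritin light chain gene Ftl1, had 38305, 47703 and 51291 counts. Its log2 fold change of 0.33 ± 0.05 lay near the 0.35 ± 0.05 of Ftl1, and turned to -0.08 with a GC trend removed.

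Copies of cytosolic ribosomal protein genes were the largest class, with 119 members from 48 parents. Of these, 9 were enriched and 12 depleted, with a median log2 fold change of -0.30 and of -0.37 for the parents over the same pairs. The difference had a median of 0.19, with 28 intervals above 0 and 14 below. In the 86 pairs with at least 30 Input counts for the pseudogene the median was 0.12, with 20 above and 14 below. The shares enriched and depleted, 7.56% and 10.1%, were both under the 15.0% and 13.0% of all genes tested. The other 140 pairs had a median difference of 0.05, with 32 intervals on each side.

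Several ribosomal genes had many copies, and the ends of their ranges were often members with few Input counts. The 8 copies of Rpsa, the gene of the laminin receptor and small-subunit protein, ran from -1.16 (Rpsa-ps7, depleted) to 1.79 (Rpsa-ps5, with 4 counts in Input and not called), with Rpsa at -0.18. The 6 copies of Rpl19 ran from -2.59 (Rpl19-ps4, with 24 counts in Input and not called) to Rpl19-ps3, and for Rpl19-ps4 and Rpsa-ps5 the interval of the difference from the parent includes 0. The 5 copies of Rps2 ran from -0.84 to 1.65, and for 4 of them the interval of the difference from Rps2, which was at -0.77, lay above 0. The 5 copies of Rpl17 ran from -1.76 to -0.31, with Rpl17 at -0.82. Rpl21-ps1 had 0, 15 and 23 counts, at least 6.59-fold for the mean of the IP replicates against the floor, in a member that had to be higher in IP to reach the limit, while Rpl21 was at 0.16 and the other 3 copies lay between -0.50 and 0.16. Rpl9-ps8, for which the same holds, had 2, 38 and 42 counts, with Rpl9 at -0.31. In the families of Rpl19, Rpl21, Rpl9, Rpl31, Rps15a, Rps2, Rps12 and Rpsa, the member farthest above the parent had under 20 counts in Input. The families of Rpl10, Rpl17 and Rps19 are not in this list. Rpl10-ps6, with at least 30 counts in Input, was enriched at 1.06, with Rpl10 at -1.02. Its difference of 2.08 was the highest among ribosomal pairs with at least 30 Input counts, with an interval above 0.

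**Figure D4:**
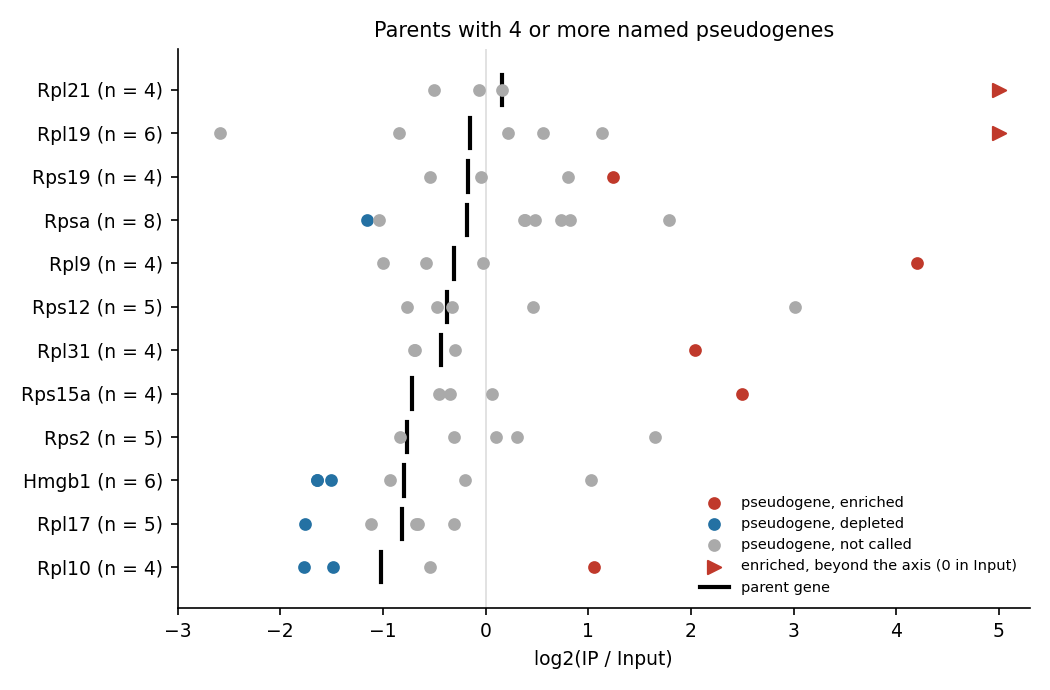
Log2 ratio of YTHDF2 IP over Input (x axis) for each named pseudogene of the 12 parents with 4 or more (points, coloured by call) and for the parent (black bar). Arrowheads mark Rpl19-ps3 and Rpl21-ps1, with 0 counts in Input, which lie beyond the axis.

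The copies of genes for high mobility group proteins, histone H3.3 and the nucleoplasmin Npm3, grouped by symbol, numbered 11, and 8 of them came from Hmgb1 or H3f3a. Copies of other chromatin genes, such as Anp32b, Cbx3, Hdac1 and Smarca5, were not in this group. Depletion was called for 6 of the 11 and enrichment for 1, Hmga2-ps1, beside 13.0% and 15.0% of all genes tested, and the median log2 fold change was -1.47. The 2 copies of H3f3a, which encodes this replication-independent histone, were at -1.47 and -3.20, with H3f3a at -2.13. Of 6 copies of Hmgb1, an abundant DNA-bending protein, 3 were depleted at -1.64, -1.64 and -1.50, with Hmgb1 itself at -0.79. The other 3 were not called. Hmgb1-ps4 was at 1.03, with a difference of 1.82 from Hmgb1 (0.68 to 2.96), Hmgb1-ps7 at -0.20 and Hmgb1-ps6 at -0.93.

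Among the smaller classes, 0 of 8 copies of respiratory chain genes were enriched or depleted at the limits used, with values from -0.99 to 0.71. Of 4 glycolytic copies, Ldha-ps2 was depleted, and the 2 Gapdh copies were at -0.60 and -1.45 with Gapdh at -1.96. Of 3 copies of cytoskeleton genes 2 were depleted, and of 3 copies of chaperone genes 2 were depleted. The 2 copies of translation factor genes and the 2 of zinc finger genes were not called. The 108 members of all other classes with a parent held 9 enriched and 28 depleted, beside 15.0% and 13.0% of all genes tested.

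The differences were then grouped by identity to the parent. In 106 pairs with at least 99% identity the median difference was -0.00, with 16 intervals above 0 and 28 below. In 117 pairs from 95% to 99% it was 0.25, with 27 above and 16 below. In 32 pairs under 95% it was 0.79, with 15 above and 2 below. The median size of the difference, whatever its sign, was 0.48, 0.71 and 1.18 in these groups. The groups also differed in Input counts, since 9, 36 and 19 pairs had under 30 for the pseudogene. In the other 97, 81 and 13 pairs the median difference was -0.01, 0.00 and 0.17, with 16, 21 and 6 intervals above 0 and 28, 15 and 2 below, and the median size was 0.42, 0.56 and 0.99. Counts moved with identity, since the median of the mean counts per library was 287, 67.7 and 30.3, and non-unique windows fell from 66.2% to 15.0% and 0%. Identity, read sharing, count depth and the Input count behind the ratio cannot be told apart here.

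**Figure D5:**
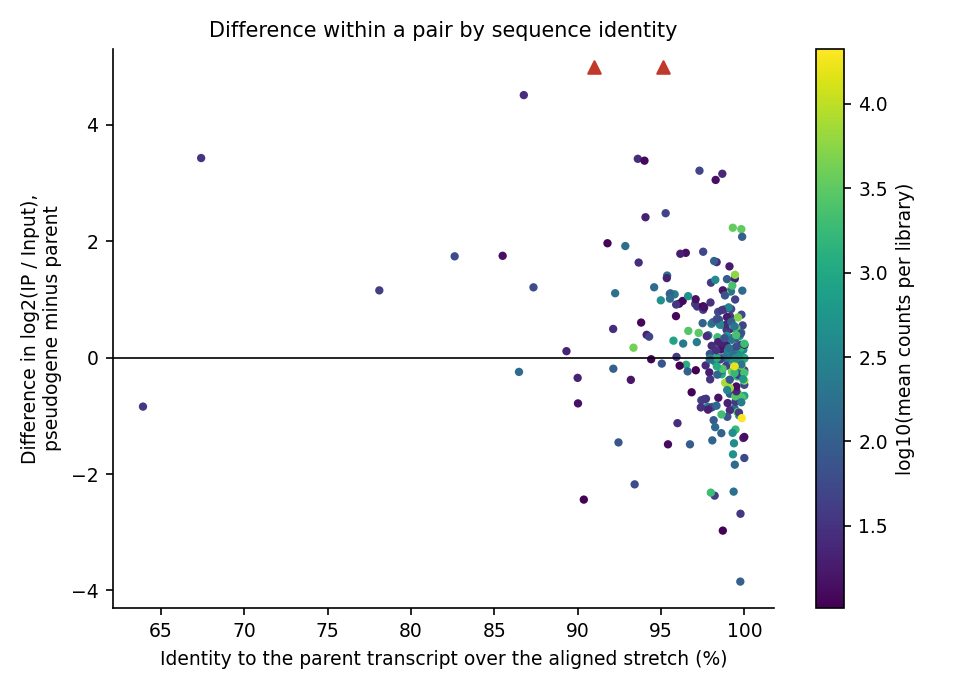
Difference in log2 ratio of YTHDF2 IP over Input, pseudogene minus parent (y axis), against identity to the parent transcript (x axis, percent), coloured by log10 of the mean counts per library. Triangles mark Rpl19-ps3 and Rpl21-ps1, beyond the axis. Most pairs lie above 95% identity, and most of those below it have few counts and differences above 0.

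The reading frame of the parent was followed through the copy in the 226 pairs whose alignment held the whole coding sequence. In 144 the copy kept the start codon and reached its first stop at the same number of codons as the parent, in 70 earlier and in 6 later. In 5 the start codon was lost, and in 1 no stop was found. Tdgf1-ps1 (171 codons), Rab11b-ps2 (218), Rbpj-ps3 (485), Rpl3-ps1 (403) and Tdg-ps2 (397) kept the full length. The first stop came after 54 of 196 codons in Rpl19-ps3, 106 of 130 in Rps15a-ps4, 80 of 125 in Rpl31-ps15 and 113 of 332 in Ldha-ps2. Of the 144 copies of full length 6 were enriched and 33 depleted, and of the 70 shortened ones 6 and 14, beside 15.0% and 13.0% of all genes tested. The median log2 fold changes were -0.54 and -0.34.

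Base composition and a common m6A context moved with the calls among members as among all genes. Enriched members had a median GC content of 51.5% and depleted members 46.5%, where all enriched and depleted genes had 53.1% and 45.6%. The letters GGAC, within the sequence in which m6A is often placed, occurred on the sense strand of the exons at a median of 5.02 per kilobase in enriched, 2.90 in depleted and 3.58 in other members. In all genes these medians were 4.68, 3.18 and 4.01. The Spearman rho of log2 fold change with GC content was 0.25 over 344 members and 0.31 over all genes. Whether GC content or the motif goes with the calls cannot be told apart, and a match of 4 letters is no measured m6A site. For the 72 members inside a host gene that was tested, the rho between member and host was 0.11.

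Among members without a parent by name, 7 of 85 were enriched (8.24%) and 16 depleted (18.8%), beside 15.0% and 13.0% of all genes tested, with a median log2 fold change of -0.14. Tmem250-ps, which RefSeq lists as protein-coding with 3 exons, went from 1106 counts in Input to 3548 and 3670 in IP, a log2 fold change of 1.67 ± 0.09 (SE, adjusted p = 2.9e-19). Ube2d-ps, listed as a long noncoding RNA of 7 exons that overlaps Urgcp on the opposite strand, had 171, 985 and 1028 counts and a log2 fold change of 2.52 ± 0.16. Urgcp had 240, 678 and 648 and a log2 fold change of 1.43, and by the default of the counter reads over both genes were left out.

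Adgrd2-ps, with 18 exons, had 22, 172 and 135 counts (2.76 ± 0.42 SE). Amy2-ps1 had 20, 80 and 57 (1.73 ± 0.53), a call lost with DESeq2 and with dispersion fixed at 0.1. Both had under 30 counts in Input and needed IP counts to reach the limit. The lowest values were those of Eif3s6-ps2, with 314, 28 and 22 counts, and of Ak3l2-ps, with 61, 4 and 6. The first was 95.0% identical to Eif3e, a subunit gene of a translation initiation factor, which was itself depleted (-1.47 ± 0.06 against -3.68 ± 0.33 for the copy). The second was 99.5% identical to Ak4, a mitochondrial adenylate kinase gene, which was at -0.10 ± 0.07 against -3.62 ± 0.76. Speer8-ps1 had 59, 8 and 9 counts (-2.82 ± 0.70), and Pced1c-ps 27, 3 and 4 (-2.94 ± 1.21, a call lost with DESeq2).

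The parent by name was the best match among RefSeq mRNAs for 250 of the 260 members with a parent. Ywhaq-ps1 was among the 10 others. Restricting the pairs to those in which it was the best match left 57 intervals above 0 and 46 below. Taking the best matching gene of the same strand for all members gave 305 pairs, with 64 above and 59 below.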

How the data were processed

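RIP-seq counts of 1 Input and 2 YTHDF2 IP libraries, grouped by sample title, were used. Per the submitters' processing notes, the authors used fastp 0.19.4, HISAT2 2.2.1, DESeq2 1.40.2 and mm10. The deposited values are raw counts per gene, made by the authors with featureCounts 2.0.3 per the file headers, over RefSeq exons, without strand and with each mate of a pair counted on its own, so sampling noise exceeds that of the counts. The labels describe IP of extracted total RNA and the methods IP from a cleared lysate, and the counts do not settle which. The table held 0 columns of other samples.

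The 345 members and all lists were chosen with earlier results of these data known. The analysis ran in R 4.3.3 (edgeR 4.0.16): filterByExpr (19601 genes left), TMM (factors 0.957, 1.02 and 1.02), the robust quasi-likelihood F test with 1 residual degree of freedom, and Benjamini-Hochberg adjustment over all genes, called at an adjusted p under 0.05 and a fold over 2. The common dispersion was 0.00538. Differences of pairs combine both standard errors in quadrature, which treats the genes of a pair as independent, with 95% t intervals. Single-library ratios added 0.5 to each count, and the floor was 3 counts. The script was tested on simulated data. All 49997 symbols matched RefSeq of GRCm38.p6, and members were aligned to RefSeq transcripts with blastn 2.17.0 (E-value limit 1e-10).

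Named members were, among pairs with a mean of at least 30 counts and the same sign in both IP libraries, the 6 highest, 6 lowest and 4 smallest differences, the 8 highest counts, and the 4 highest and 4 lowest called members without a parent. Alternatives were DESeq2 1.42.0, total-count scaling, no filter, dispersion fixed at 0.1, halved counts, a GC trend removed, at least 100 counts, no exon overlap, a pseudocount of 1 and each IP library left out. Best matches in place of parents were added after seeing the data.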

Additional observations from a re-analysis of the deposited data

How the results depend on the processing

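No paired analysis was possible because Input was 1 library without a replicate number of its own. With 1 Input library, leaving out an IP library gives values with no test, so counts of calls and intervals were not available there. Those values ranged from -0.34 to -0.28 for the median log2 fold change of the members and from 0.13 to 0.17 for the median difference, pseudogene minus parent. With dispersion fixed at 0.1, 14 members were enriched and 44 depleted, and 20 intervals lay above 0 and 10 below. The median log2 fold change was -0.23 with total-count scaling. The median difference was 0.21 with a GC trend removed and 0.0886 with at least 100 counts. DESeq2 gave 18 enriched and 48 depleted, with 43 intervals above 0 and 33 below. The other alternatives kept these counts within 1.5 times of 26, 67, 60 and 46.

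Single values changed sign in 4 cases. With a GC trend removed, Ftl2-ps was at -0.0784, Trmt112-ps2 at -0.0965 and the difference of Rpl34-ps1 at 0.222. With 1 IP library left out at a time, Tdg-ps2 ranged from -0.0178 to 0.0803. The cause was not tested. The SD of the log2 difference between IP libraries was 0.67 over all members and 0.36 over the 157 with a mean of at least 100. The part of depth in this spread was not tested.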

Other observations

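The 13 members named after Obox4, a homeobox gene family of the oocyte and early embryo, have no parent in the table. Together they held 1647 counts in Input and 1310 and 1270 in the IP libraries. Their log2 fold changes ran from -2.36 (Obox4-ps14) to 1.62 (Obox4-ps18) with a median of -0.73. Depletion was called for 5 of them and enrichment for 1, beside 13.0% and 15.0% of all genes tested. The enriched one was Obox4-ps18, with 106, 373 and 295 counts and no window unique to it. Obox4-ps27 had 212, 85 and 115 counts and was among the depleted ones, and Obox4-ps33, the most counted, had 744, 514 and 527 and was not called.

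The 16 members named after Vmn2r, the type 2 vomeronasal receptors of pheromone sensing, ran from -1.85 (Vmn2r-ps106) to 1.69 (Vmn2r-ps99), with a median of -0.27. Only Vmn2r-ps106, with 123, 34 and 36 counts, was called, as depleted, beside 13.0% of all genes tested that were depleted and 15.0% enriched. The best RefSeq match of Vmn2r-ps15, Vmn2r-ps16 and Vmn2r-ps17 was not a receptor but a zinc finger gene, Zfp980, Zfp992 and Zfp600, at 100% identity. This match is the best-scoring aligned stretch, and genes that share a locus with a member were not left out. It therefore does not make these members copies of zinc finger genes. Vmn2r-ps16 had 2552, 1686 and 1771 counts and Vmn2r-ps17 had 981, 1411 and 1679.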
